A study of Mus musculus with 12 samples.

Results

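Splicing of pre-mRNA is carried out by the spliceosome, and 67 genes of its best known protein families were followed here in mouse CD4 T cells. The members were every gene in the files whose symbol begins with Srsf and a digit, Hnrnp, Sf3a, Sf3b, U2af, Prpf and a digit, Snrp or Tra2, or is Clk1, Clk2, Clk3 or Clk4. They are 67 of 12918 gene symbols in the files, each taken from 1 locus. The rule used names only, and no measured value. By role they comprise 13 SR proteins with their Tra2 relatives, 3 CLK kinases (Clk1, Clk3 and Clk4), 17 hnRNP proteins, 11 snRNP proteins, 10 subunits of SF3A, SF3B and U2AF, and 13 PRPF factors. All 67 passed the filter on low values, FPKM (fragments per kilobase, adjusted for the number mapped in the library) of at least 1 in at least 3 libraries, as did 9743 loci in all. Srsf12 passed it through KIKO libraries alone.

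The RNA came from splenic CD4 T cells of 2 genotypes, which the labels give only as KI and KIKO, with no allele named. From each genotype 3 libraries were made from naive cells and 3 from cells activated for 16 h with beads that carry antibodies to CD3 and CD28, a stimulus that mimics antigen and co-stimulation. Titles of KIKO activated libraries name T cells but leave out CD4. Strain, age and the altered gene are not given in the sources used here, and the series title concerns proteasome dysfunction in T cells. No label says that replicates came from separate animals, so p-values measure only the spread between these libraries.

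Small nuclear ribonucleoproteins (snRNPs) recognise the ends of an intron: U1 pairs with the 5′ splice site, U2AF and the SF3 complexes place U2 at the branch point, and PRPF proteins of the tri-snRNP drive the change to the catalytic form. SR proteins mostly favour and hnRNP proteins mostly oppose the use of nearby exons, and CLK kinases phosphorylate SR proteins. Many of these genes limit their own output by splicing in an exon that carries a premature stop codon and sends the transcript to nonsense-mediated decay.

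Each library listed between 9771 and 11102 loci. FPKM carry no read numbers, so depth is unknown. KIKO naive 2 stood apart with 85319 listed lines against 100188 to 112679 in the other libraries. Of 8 CD4 T cell markers 6 were listed (Cd28 and Lck were not), Cd4 stood between 86.4 and 220.6 FPKM in every library, and Trac was at 0 in 5 libraries. The summed level of the 6 was 1082 to 1277 FPKM in KI naive, 798 to 945 in KIKO naive, 1015 to 1209 in KI activated and 478 to 704 in KIKO activated libraries. Myeloid markers summed to 215 FPKM in KIKO naive 2 and 172.5 in KIKO activated 2, with S100a8 and S100a9 the most abundant. In KI libraries they summed to 1.22 to 2.00 FPKM, and 7 of the 9 were listed in any library. Of 9 NK and CD8 cell markers 8 were listed, with sums of 16.9 to 22.2 FPKM in KI naive, 22.2 to 37.2 in KIKO naive, 12.7 to 14.9 in KI activated and 14.5 to 33.6 in KIKO activated libraries. Limma called 2 of the 3 of them that were tested higher in KIKO activated cells. B cell markers summed to at most 2.78 FPKM, with Ms4a1 not listed in any library. In activated cells 5 of the 6 CD4 T cell markers were lower in KIKO by limma's adjusted p. The part of these levels in the results below was not tested, and counts without both KIKO libraries numbered 2 are given beside the main ones. In such bulk RNA, fewer cells of a type and less RNA per cell cannot be told apart.

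The prevailing change was a rise of splicing-factor RNA with activation that was smaller in KIKO cells. In KI cells 49 of the 67 members rose on activation and 9 fell, where 32.2% of all tested loci rose and 29.5% fell (limma on log2(FPKM + 1), adjusted p under 0.05). In KIKO cells 34 rose and 9 fell, against a background of 25.1% and 22.2%. The median over the 67 genes (log2) was 0.95 in KI and 0.36 in KIKO cells, while that of all loci was -0.01 and 0.00. Both genotypes called 33 members higher and 6 lower, and 15 members rose in KI cells with no call in KIKO cells. No such joint count was made over all loci, of which 61.7% were called in KI and 47.3% in KIKO cells. The difference between the responses was itself tested as an interaction. It was negative, so that KIKO cells gained less or lost more, for 31 members and positive for 3, against 11.6% and 8.99% of all loci. Without both KIKO libraries numbered 2, a setting chosen after the data were seen, 31 members rose and 6 fell in KIKO cells, and the interaction was negative for 31 and positive for 4. Shares of all loci in that setting are not given here, so these counts stand without a background.

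**Figure D1:**
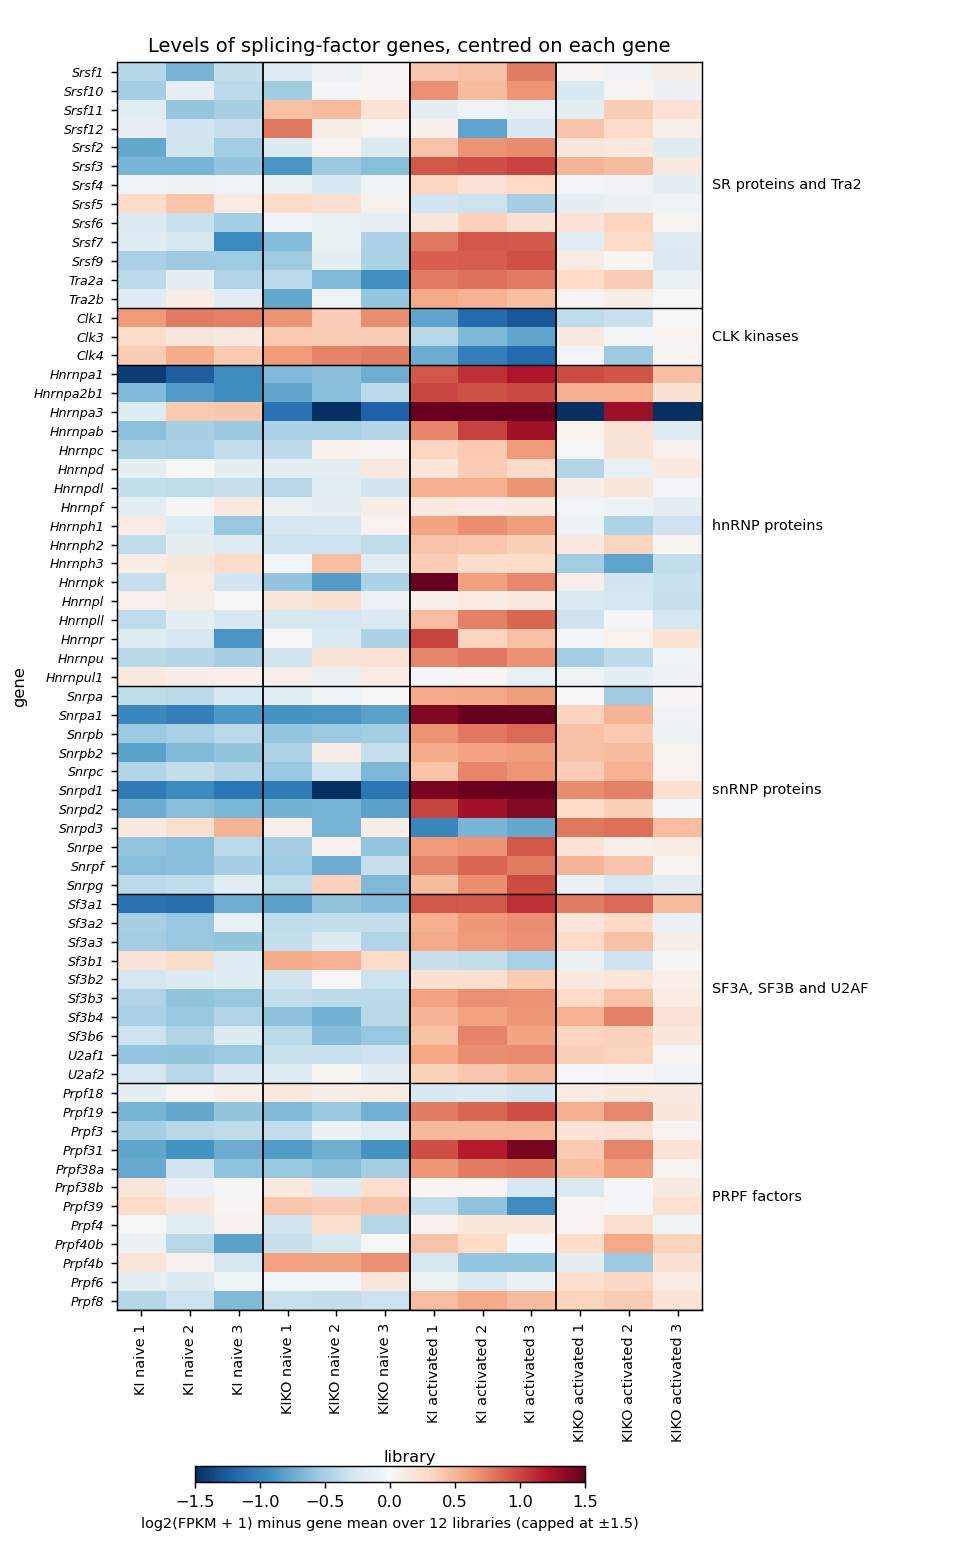
Level of each of 66 of the genes in each of the 12 libraries, as log2(FPKM + 1) minus the mean of that gene over all libraries, with genes in rows by role and libraries in columns by group; red is above and blue below the mean of the gene, with the colours capped. Most rows are highest in the 3 KI activated columns, whereas Clk1, Clk3, Clk4, Srsf5, Sf3b1, Prpf39, Prpf4b and Snrpd3 have their lowest group mean there, as do Prpf18, Prpf38b and Srsf12.

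Compared directly in activated cells, KIKO libraries had lower levels of 38 members and higher levels of 8, against a background of 19.3% and 20.7%. The median log2 difference was -0.38, against 0.04 over all loci. The 8 higher members were Clk1, Clk3, Clk4, Snrpd3, Srsf5, Prpf39, Prpf18 and Prpf6. Without the same pair of KIKO libraries 43 members were lower and 8 higher, again with no background of all loci given. From summed transcript ends alone, a fit added after the data were seen, 54 members passed the filter, of which 21 were lower and 8 higher (17.7% and 17.9% of all loci), and the interaction was negative for 16 and positive for 2 (10.1% and 7.08%). By role those ends called lower 2 of 9 SR and Tra2 genes, 7 of 15 hnRNP genes, 7 of 9 snRNP genes and 2 of 7 genes of SF3A, SF3B and U2AF, and called higher all 3 CLK kinases. The count of lower members was 27 after quantile normalization and 28 after rescaling to an equal sum of levels. Shares of all loci called lower under these scalings are not given beside them. Rescaling to an equal sum also raised the median of all loci by 0.11 in this comparison and lowered it by 0.12 for activation of KI cells. Relative to the median of all loci, 54 of 67 members lay below it in the deposited scale, 53 after that rescaling and 47 after quantile normalization.

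At rest few of these genes were called. Srsf11, Srsf1, Hnrnpu, Hnrnpa1 and Prpf4b were higher in KIKO naive libraries and none was lower, 5 of 67 where 6.46% of loci were higher and 3.9% lower. Srsf11, an SR-related factor, measured 90.1, 66.9 and 70.9 FPKM in KI naive and 138, 140.2 and 117 in KIKO naive libraries. That log2 difference of 0.79 ± 0.14 (adjusted p = 0.00546) rests on the transcript starts of the locus, with means of 75.4 FPKM in KI naive and 131 in KIKO naive libraries. Its transcript ends had means of 74.3 and 65.8 FPKM, and a fit of summed ends alone, added after the data were seen, gave the opposite sign without a call (-0.18, adjusted p = 0.463). The calls of Srsf1, Hnrnpu, Hnrnpa1 and Prpf4b, with adjusted p of 0.0481, 0.0453, 0.0463 and 0.0417, were each lost under 15 or 16 of at most 22 alternatives. From the ends alone U2af2 and Sf3b1 were called higher and Prpf4 lower, and none of the 5. The count of members called ran from 1 to 13 over the settings tried. Without both KIKO libraries numbered 2 it was 2 higher and 2 lower, with no background of all loci given.

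**Figure D2:**
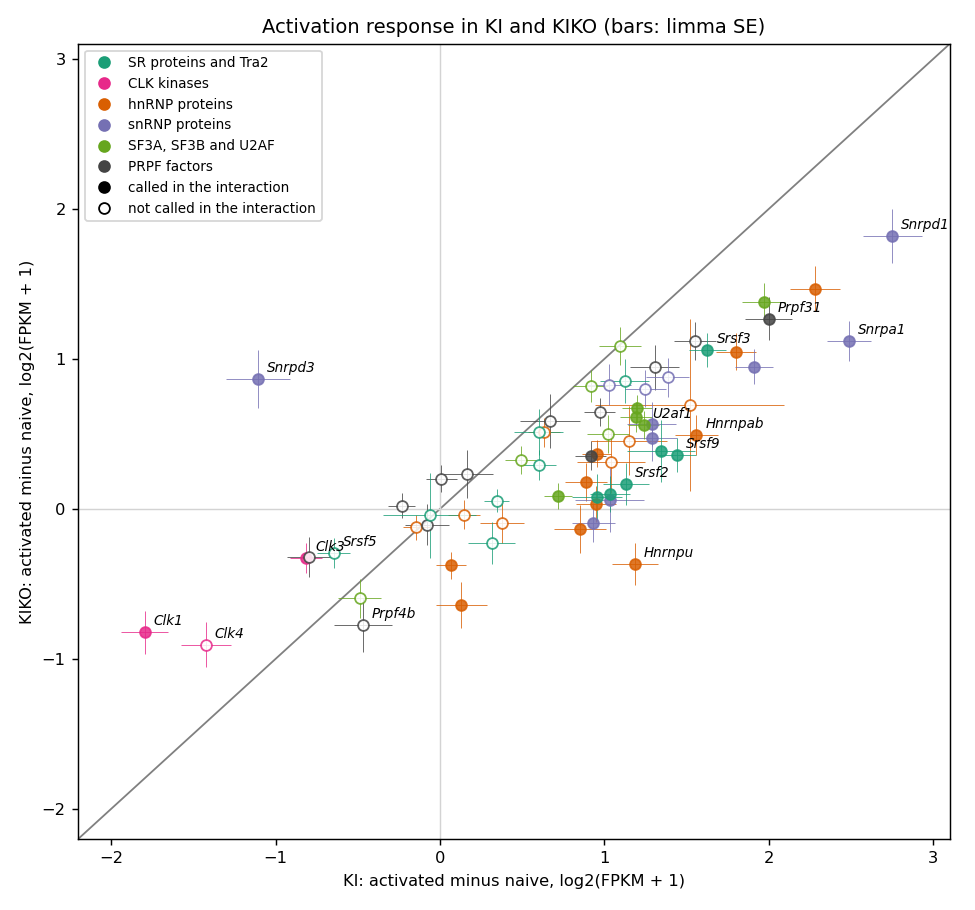
Log2 difference of activated minus naive cells in KI (horizontal) and KIKO (vertical) for 66 of the genes, with limma standard errors as bars, the line of equal response in grey and genes called in the interaction filled. Most genes to the right of 0 lie below the line, such as Hnrnpu at 1.18 in KI and -0.37 in KIKO cells, and Clk1, Clk3 and Snrpd3 lie above it.

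Among SR proteins, which bind exonic enhancers and recruit U1 and U2, 10 of 13 rose on activation of KI cells and 5 of 13 in KIKO cells, with Srsf5 falling in both. In activated cells 9 were lower in KIKO and Srsf5 was higher. Srsf3, the smallest SR protein and also an mRNA export adaptor, rose from 42.6, 42.5 and 45.9 to 133, 137 and 141 FPKM in KI libraries (log2 difference 1.63 ± 0.11, adjusted p = 2.43e-07). The KIKO libraries rose from 37.6, 47.0 and 44.4 to 98.9, 96.9 and 76.6 FPKM (1.06 ± 0.11, adjusted p = 2.06e-05). The groups of each genotype did not overlap, and all KIKO activated values lay under all KI activated ones.

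Srsf9, a splicing repressor or activator depending on the exon, had the strongest genotype difference of its class. It measured 53.6, 54.0 and 56.0 FPKM in KI activated and 30.8, 29.0 and 24.5 in KIKO activated libraries, a log2 difference of -0.94 ± 0.11 (adjusted p = 6.06e-05). Naive levels were 19.97, 19.1 and 19.3 FPKM in KI and 19.3, 25.7 and 20.2 in KIKO libraries, with overlapping ranges, and the interaction was -1.08 ± 0.16 (adjusted p = 0.00118). Its rise in KIKO cells, 0.36 ± 0.11 (adjusted p = 0.0207), was lost under 5 of 22 alternatives, and the range of KIKO naive libraries reached into that of the KIKO activated ones.

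Srsf1, the prototype SR protein with roles in splicing and translation, went from 45.6, 37.8 and 48.3 to 82.0, 84.3 and 107 FPKM in KI libraries (1.03 ± 0.12, adjusted p = 1.45e-05). The KIKO libraries measured 54.2, 58.7 and 63.9 FPKM when naive and 63.9, 59.7 and 65.8 when activated, with overlapping ranges and a log2 difference of 0.10 ± 0.12 (adjusted p = 0.527). Srsf2, which binds exonic enhancers in the nucleus, behaved likewise in these data. It went from 82.4, 115 and 98.5 to 191, 226 and 231 FPKM in KI libraries (1.13 ± 0.14, adjusted p = 2.11e-05) and measured 123, 146 and 123 and 159, 157 and 125 FPKM in KIKO naive and activated ones. The interactions were -0.93 ± 0.17 for Srsf1 (adjusted p = 0.00345) and -0.96 ± 0.20 for Srsf2 (adjusted p = 0.00607).

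Srsf10, an SR protein that turns repressor when dephosphorylated, measured 58.1, 50.05 and 57.3 FPKM in KI activated and 30.2, 36.9 and 33.5 in KIKO activated libraries (-0.70 ± 0.15, adjusted p = 0.00309), a call lost from transcript ends alone (-0.86, adjusted p = 0.0607). Srsf4 differed less, 59.6, 55.2 and 58.6 against 46.0, 45.7 and 43.4 FPKM (-0.35 ± 0.08, adjusted p = 0.00308), and its call was lost after quantile normalization and after rescaling to an equal sum. Both ran lower in every KIKO activated library than in any KI activated one. Of the Tra2 proteins, which bind GAA-rich enhancers, Tra2a rose from 20.8, 17.3 and 14.3 to 34.7, 36.5 and 26.1 FPKM in KIKO libraries (0.85 ± 0.15, adjusted p = 0.000605), and Tra2b from 44.5, 73.3 and 51.1 to 79.1, 81.6 and 76.2 (0.51 ± 0.15, adjusted p = 0.0143). The Tra2b call was lost without KIKO naive 1 or KIKO naive 3 (adjusted p up to 0.0621). In KI libraries the mean of Tra2a went from 22.2 to 49.3 FPKM and that of Tra2b from 72.4 to 109.8 FPKM. For both genes every KIKO activated value lay under every KI activated one.

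Srsf5 was the exception in its class. It was among the most abundant members at rest, with 328, 362 and 295 FPKM in KI and 328, 318 and 283 in KIKO naive libraries. On activation it fell to 221, 216 and 190.4 FPKM in KI (-0.65 ± 0.10, adjusted p = 0.000129) and 243, 254 and 258 in KIKO libraries (-0.29 ± 0.10, adjusted p = 0.0294). The KIKO activated values lay above the KI activated ones, but that call (adjusted p = 0.0495) was lost under 14 of 22 alternatives, and the fall in KIKO cells was lost under 6.

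The CLK kinases ran opposite to the SR proteins they phosphorylate: all 3 fell on activation in both genotypes, and all 3 were higher in KIKO than in KI activated cells. Clk1 measured 187, 206 and 203 FPKM in KI naive and 192, 156 and 196 in KIKO naive libraries, with overlapping ranges. After activation it measured 68.7, 53.2 and 49.2 FPKM in KI (-1.80 ± 0.14, adjusted p = 7.04e-07) and 91.7, 94.8 and 120.3 in KIKO libraries (-0.82 ± 0.14, adjusted p = 0.000592). The activated groups did not overlap (0.83 ± 0.14, adjusted p = 0.000673), and the interaction was 0.98 ± 0.20 (adjusted p = 0.00636).

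Clk4, the closest relative of Clk1, fell from 47.7, 54.1 and 48.1 to 21.4, 17.3 and 15.6 FPKM in KI libraries (-1.42 ± 0.15, adjusted p = 6.17e-06) and from 56.9, 61.7 and 63.0 to 35.3, 24.5 and 37.1 in KIKO libraries (-0.91 ± 0.15, adjusted p = 0.000441). Clk3, a more distant CLK kinase, fell from 45.6, 42.4 and 41.5 to 27.9, 23.3 and 21.6 FPKM in KI libraries (-0.81 ± 0.10, adjusted p = 1.63e-05). Its KIKO libraries fell from 49.5, 49.3 and 48.7 to 41.4, 36.9 and 38.8 FPKM (-0.33 ± 0.10, adjusted p = 0.0155), a call lost without KIKO activated 2 (adjusted p = 0.0567) and without both KIKO libraries numbered 2 (adjusted p = 0.0885). The activated genotypes differed by 0.79 ± 0.15 for Clk4 (adjusted p = 0.00132) and 0.67 ± 0.10 for Clk3 (adjusted p = 0.000215). For Clk4 the interaction was not called (0.52 ± 0.21, adjusted p = 0.108), and for Clk3 it was (0.49 ± 0.14, adjusted p = 0.0271), a call lost without any 1 of 6 libraries.

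The hnRNP proteins coat nascent RNA and compete with SR proteins. Of the 17, 13 rose and none fell on activation of KI cells, while 5 rose and 3 fell in KIKO cells. In activated cells 12 were lower in KIKO and none higher, and 10 had a negative interaction. Hnrnpu, a scaffold protein that binds chromatin and U2 RNA, had the most negative interaction of the class, -1.55 ± 0.20 (adjusted p = 0.000626). It rose from 79.9, 79.0 and 75.7 to 178, 186 and 173 FPKM in KI libraries (1.18 ± 0.14, adjusted p = 1.58e-05), and measured 87.5, 124 and 125 and 74.5, 81.4 and 102 FPKM in KIKO naive and activated libraries. The latter ranges overlapped, and the KIKO decrease of -0.37 ± 0.14 (adjusted p = 0.0479) lost its call under 14 of 21 alternatives. In activated cells the genotypes stood apart by -1.06 ± 0.14 (adjusted p = 0.000118). The level of Hnrnpu rests on transcript starts. Its ends were above 0 only in KIKO activated 2, at 48.2 FPKM, so the fit of ends alone left it out.

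Hnrnpa2b1 and Hnrnpa1, the core hnRNP A/B proteins that promote exon skipping, had the largest activation estimates of their class in KI cells. Hnrnpa2b1 had the highest mean level of all members in activated cells of both genotypes. It went from 251, 220.2 and 208 to 802, 773 and 790.4 FPKM in KI (1.80 ± 0.12, adjusted p = 2.21e-07) and from 231, 256 and 302 to 583, 581 and 469 in KIKO libraries (1.05 ± 0.12, adjusted p = 4.2e-05). Hnrnpa1 went from 83.8, 94.4 and 116 to 429.9, 479 and 523 FPKM in KI (2.28 ± 0.15, adjusted p = 1.96e-07) and from 142, 145 and 134 to 444, 433 and 308 in KIKO libraries (1.47 ± 0.15, adjusted p = 1.73e-05). The naive and activated ranges of both genes were far apart in each genotype, whereas the activated ranges of Hnrnpa1 overlapped between the genotypes. Hnrnpa1 has many processed pseudogenes that can share its reads, so its values are uncertain.

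Hnrnpab, an RNA-binding protein of the hnRNP D group, measured 486, 595 and 704 FPKM in KI activated and 304, 337 and 256 in KIKO activated libraries (-0.98 ± 0.13, adjusted p = 0.000128). Naive levels were 190.4, 208 and 199 FPKM in KI and 209.9, 208 and 216 in KIKO libraries, close together beside those activated levels. Hnrnpll, the regulator of Cd45 (Ptprc) exon skipping in activated T cells, rose from 8.83, 10.5 and 9.86 to 16.6, 20.5 and 22.3 FPKM in KI libraries. In KIKO libraries it measured 9.87, 9.71 and 10.0 FPKM when naive and 9.29, 11.6 and 9.63 when activated, with overlapping ranges. Its genotype difference in activated cells was -0.89 ± 0.12 (adjusted p = 0.000135) and its interaction -0.91 ± 0.17 (adjusted p = 0.00376).

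Hnrnph1, which binds G-rich sequences, measured 234, 251 and 238 FPKM in KI activated and 146, 112 and 124 in KIKO activated libraries (-0.92 ± 0.16, adjusted p = 0.000681), with naive values of 168, 135 and 104 and 129, 130.4 and 159.9 FPKM in KI and KIKO. The KIKO activated values lay within the KI naive range. Hnrnph3, a relative of Hnrnph1, fell in KIKO cells from 14.5, 20.9 and 13.2 to 10.1, 8.22 and 11.4 FPKM (-0.64 ± 0.16, adjusted p = 0.00499), beside 15.9, 16.9 and 18.3 and 19.7, 18.1 and 18.3 FPKM in KI naive and activated libraries, and the interaction was -0.77 ± 0.22 (adjusted p = 0.0276). Hnrnpl, which controls the same Cd45 exons, fell in KIKO cells from 119, 126 and 100.3 to 92.0, 88.8 and 83.5 FPKM (-0.38 ± 0.09, adjusted p = 0.00516), while KI libraries measured 111, 113 and 105 FPKM when naive and 111, 115 and 118 when activated. The interaction call of Hnrnpl (adjusted p = 0.0319) was lost under 12 of 22 alternatives and that of Hnrnph3 under 7. From transcript ends alone the KIKO fall of Hnrnph3 turned to 0.17 (adjusted p = 0.838).

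Hnrnpa3 had the lowest log2 difference of all members between activated genotypes, -2.34 ± 0.57 (adjusted p = 0.00641), but its KIKO activated libraries did not agree among themselves. They measured 22.8, 166 and 21.2 FPKM against 242, 208 and 226 in KI activated libraries. Its level came from transcript starts, while transcript ends summed to means of 4.6 to 11.4 FPKM over the groups, and pseudogenes can share its reads. The locus named Hnrnpul1 matched the exon and intron lengths of the neighbouring Ccdc97 and was not called in any comparison.

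The snRNP proteins, the Sm ring and the specific proteins of U1 and U2, had the highest class median on activation of KI cells, 1.29. In KI cells 10 of 11 rose and in KIKO cells 9 of 11, and in activated cells 8 were lower in KIKO. Snrpa1, the U2 A′ protein, rose from 24.3, 23.4 and 26.3 to 129, 141 and 161 FPKM in KI libraries, 5.82-fold by the means (2.49 ± 0.13, adjusted p = 5.97e-08). In KIKO libraries it rose from 25.8, 26.0 and 27.3 to 61.4, 69.5 and 46.6 FPKM, 2.24-fold (1.12 ± 0.13, adjusted p = 4.88e-05). Naive levels of the genotypes overlapped, activated ones did not (-1.28 ± 0.13, adjusted p = 2.05e-05), and the interaction was -1.37 ± 0.19 (adjusted p = 0.000819). The level of Snrpa1 too rests on transcript starts. Its ends were above 0 only in KI activated 2, at 12.0 FPKM, so the fit of ends alone left it out.

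Snrpd1 and Snrpd2 form a pair within the Sm ring and rose together. Snrpd1 went from 30.5, 32.9 and 29.8 to 174, 228 and 249.7 FPKM in KI (2.75 ± 0.18, adjusted p = 1.81e-07) and from 30.4, 20.6 and 29.8 to 107, 109.6 and 76.3 in KIKO libraries (1.82 ± 0.18, adjusted p = 1.37e-05). Snrpd2 went from 15.3, 16.5 and 16.1 to 54.4, 64.7 and 70.0 FPKM in KI (1.91 ± 0.12, adjusted p = 1.13e-07) and from 15.7, 15.9 and 14.6 to 32.5, 34.0 and 26.1 in KIKO libraries (0.95 ± 0.12, adjusted p = 5.98e-05). Every KIKO activated value of both genes lay under every KI activated one, by -1.15 ± 0.18 for Snrpd1 (adjusted p = 0.000372) and -1.01 ± 0.12 for Snrpd2 (adjusted p = 4.07e-05). Snrpf, another Sm protein, rose from 144, 144 and 158 to 374, 408 and 385 FPKM in KI and from 154, 133 and 175 to 320.2, 302 and 233 in KIKO libraries.

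Snrpd3, the Sm protein bound by the methylosome, went against its class, but the parts of its locus disagreed. By the level rule it fell in KI cells from 88.7, 94.7 and 115 to 40.3, 49.2 and 46.9 FPKM (-1.11 ± 0.19, adjusted p = 0.000345) and rose in KIKO cells from 85.04, 49.1 and 85.8 to 139.6, 143 and 111 (0.87 ± 0.19, adjusted p = 0.00312). Its transcript starts had means of 99.3 and 73.3 FPKM in naive KI and KIKO libraries and of 45.5 and 131 FPKM in activated ones. Its transcript ends had means of 5.03, 4.73, 45.4 and 6.28 FPKM in the same order. By the ends the gene was thus highest in KI activated cells, like its class, and by the starts it was lowest there. Fitted on the ends alone the difference between activated genotypes was -2.67 (adjusted p = 1.21e-06). The locus named Snrpa matched the lengths of the neighbouring Rab4b better than its own gene (13 against 4 of 23), so its calls are not read as those of the U1 A protein. Without it and the locus named Hnrnpul1, a check added after the data were seen, 48 members rose in KI cells and 37 were lower in KIKO activated ones.

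SF3A, SF3B and U2AF recognise the branch point and the 3′ splice site. Of their 10 genes, 9 rose on activation of KI cells and 8 in KIKO cells, while Sf3b1 fell in both, and between activated genotypes 6 were lower in KIKO (3 after rescaling to an equal sum). Sf3a1 had the largest rise, from 11.0, 10.8 and 14.5 to 48.1, 47.9 and 54.1 FPKM in KI (1.97 ± 0.13, adjusted p = 1.81e-07) and from 13.9, 16.0 and 15.5 to 42.8, 45.6 and 34.9 in KIKO libraries (1.38 ± 0.13, adjusted p = 9.06e-06). Its activated levels did not differ by call between genotypes (adjusted p = 0.1). The locus named Sf3b4 rose to 44.5, 47.8 and 49.5 FPKM in KI and 45.1, 52.9 and 36.2 in KIKO activated libraries, overlapping ranges. Its naive values were 21.9, 20.5 and 22.4 FPKM in KI and 19.9, 18.4 and 22.9 in KIKO libraries. The only length compared at this locus, a 111-bp intron, is found in the neighbouring Vps45 and not in Sf3b4. A form that keeps this intron made up 92.5% to 99.98% of the level over the libraries, so the gene measured is uncertain.

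U2af1 and U2af2, the small and large U2AF subunits, were both lower in KIKO activated cells. U2af1 measured 90.9, 98.5 and 99.1 FPKM in KI activated and 77.2, 75.9 and 61.2 in KIKO activated libraries (-0.43 ± 0.09, adjusted p = 0.00305), and 39.8, 39.7 and 40.9 and 47.4, 47.6 and 48.5 FPKM in KI and KIKO naive ones. U2af2 measured 132, 138 and 146 against 103, 105 and 100.3 FPKM in activated libraries (-0.43 ± 0.09, adjusted p = 0.002). Its transcript ends, with group means of 0.565 to 1.71 FPKM, gave 0.40 with no call (adjusted p = 0.143). In naive libraries it measured 86.2, 77.6 and 88.7 FPKM in KI and 91.5, 106 and 93.8 in KIKO cells. For both genes the KIKO libraries were the higher ones at rest without a call, and the lower ones after activation. Sf3b1, the subunit that clamps the branch point, fell from 127, 135 and 96.9 to 87.6, 86.0 and 79.0 FPKM in KI (-0.49 ± 0.13, adjusted p = 0.00604) and from 164, 160.4 and 135 to 104, 89.4 and 109 in KIKO libraries (-0.60 ± 0.13, adjusted p = 0.00263).

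The PRPF factors were mixed: 7 of 13 rose and 3 fell in KI cells, 7 rose and 1 fell in KIKO cells, and between activated genotypes 3 were higher and 3 lower in KIKO. The median difference of the class between activated genotypes was -0.05 and turned to 0.06 after rescaling to an equal sum, which left 3 higher and 1 lower. Prpf31, a U4/U6 protein needed to form the tri-snRNP, rose from 12.1, 11.1 and 12.5 to 43.1, 50.2 and 59.8 FPKM in KI (2.00 ± 0.14, adjusted p = 3.15e-07) and from 11.6, 12.5 and 11.1 to 28.6, 36.5 and 24.96 in KIKO libraries (1.27 ± 0.14, adjusted p = 3.36e-05). Prpf19, the ubiquitin ligase of the activated spliceosome, rose from 28.5, 27.2 and 30.9 to 80.3, 86.2 and 92.8 FPKM in KI and from 29.2, 31.6 and 28.0 to 68.3, 78.0 and 52.7 in KIKO libraries. Prpf8, the catalytic core scaffold, went from 37.1, 40.0 and 31.4 to 69.6, 74.7 and 70.4 FPKM in KI and from 39.6, 39.1 and 40.0 to 63.7, 65.6 and 58.3 in KIKO libraries, with -0.19 ± 0.09 between activated genotypes (adjusted p = 0.125). All 3 rose in both genotypes, and for Prpf31 the activated KIKO values lay under the KI ones (-0.75 ± 0.14, adjusted p = 0.00131).

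Prpf39, a U1-associated factor, fell on activation of KI cells from 26.3, 24.0 and 21.8 to 16.3, 13.7 and 10.7 FPKM (-0.80 ± 0.13, adjusted p = 0.000215). In KIKO libraries it measured 28.6, 28.1 and 29.3 FPKM when naive and 22.1, 21.2 and 24.995 when activated (adjusted p = 0.0616), and the activated genotypes differed by 0.72 ± 0.13 (adjusted p = 0.00101). Prpf18, a second-step factor, measured 21.3, 21.4 and 20.4 FPKM in KI and 27.1, 28.1 and 27.5 in KIKO activated libraries (0.38 ± 0.08, adjusted p = 0.00299). Prpf6, a tri-snRNP bridge protein, measured 49.1, 44.4 and 48.6 and 61.9, 64.5 and 56.4 FPKM (0.36 ± 0.09, adjusted p = 0.00872). Each of the 3 was higher in every KIKO activated library than in any KI activated one. Prpf4b, a kinase of the pre-catalytic spliceosome, fell in KIKO cells from 81.1, 80.2 and 85.4 to 47.9, 36.0 and 62.4 FPKM (-0.78 ± 0.18, adjusted p = 0.00327). KI libraries also went down, from 60.4, 55.3 and 44.2 to 44.0, 35.2 and 35.1 FPKM, without overlap.

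The forms of these transcripts were followed through cassette exons, whose inclusion is the FPKM of the form with the exon as a percent of both forms. At member loci 28 exons had both forms listed and at least 5 FPKM together in every library, and 27 of them were found in GENCODE M21 by the length of the exon and of both flanking introns. The plan covered the 20 at SR, hnRNP and CLK loci, and those at Prpf, Snrpa1 and U2af loci were added after the data were seen. By that annotation 15 are coding and 9 lie in a nonsense-mediated decay transcript and are coding in no protein-coding one. Of the latter, 4 (Srsf2, Hnrnpdl, Hnrnpl and Prpf39) also lie in a transcript of another class. No test was made: an exon is described by whether the 3 values of 2 groups overlap, beside the same count over 700 cassette exons of all loci. On activation of KI cells 10 of the 28 were lower and 7 higher without overlap, against a background of 17% and 13.7%. In KIKO cells 6 were lower and 3 higher, against 10% and 10.7%. In activated cells KIKO was higher at 7 and lower at 4 (10.6% and 12.6%), and in naive cells higher at 6 and lower at 5 (7.71% and 11.4%). Over the 20 exons of the plan alone, 6 were higher and 6 lower on activation of KI cells, and 3 higher and 4 lower in KIKO cells. Between genotypes 4 of the 20 were higher and 3 lower in activated KIKO cells, and 4 higher and 5 lower in naive ones.

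The 9 decay exons leaned one way. On activation 7 were lower without overlap in KI cells and 4 in KIKO cells, against 17% and 10% of all cassette exons. None was higher, against 13.7% and 10.7%. In activated cells 4 were higher without overlap in KIKO than in KI libraries and none lower (10.6% and 12.6% of all). In naive cells 2 were higher in KIKO and none lower (7.71% and 11.4% of all). The exons of Prpf3, Prpf38b, Prpf39 and Prpf4b are among those added after the data were seen. Only 4 of the 9 decay exons hold the annotated stop codon of a decay transcript. Those of Srsf2, Hnrnpdl, Prpf38b, Prpf39 and Prpf4b hold none by that annotation. Sequences are shown for the 4 to let the stop codon be seen. Read from the exon start to the stop codon of the annotated decay transcript, each ends in an in-frame stop, given in capitals (GENCODE M21 transcripts, GRCm38, 5′ to 3′ on the strand of the gene).
Srsf3 456-bp exon, chr17:29039454-29039487, plus strand: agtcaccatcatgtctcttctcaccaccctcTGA
Tra2b 276-bp exon, chr16:22259181-22259261, minus strand: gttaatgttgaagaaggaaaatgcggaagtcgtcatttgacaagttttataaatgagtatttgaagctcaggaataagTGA
Hnrnpl 70-bp exon, chr7:28817335-28817393, plus strand: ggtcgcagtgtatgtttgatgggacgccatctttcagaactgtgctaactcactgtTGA
Prpf3 96-bp exon, chr3:95849761-95849790, minus strand: gagttccaggaagcgctcgcccctggcTGA

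Inclusion of the Srsf3 exon was 66.96, 59.6 and 57.3% in KI naive, 66.5, 28.8 and 67.04% in KIKO naive, 6.55, 13.0 and 11.7% in KI activated and 10.5, 21.5 and 32.8% in KIKO activated libraries. The KI groups did not overlap, and KIKO naive 2 at 28.8% reached into the KIKO activated range. For the Tra2b exon the values were 60.8, 64.5 and 59.2% in KI naive and 27.2, 18.7 and 14.0% in KI activated libraries, beside 73.2, 49.6 and 64.7% and 37.6, 30.9 and 37.3% in KIKO naive and activated ones. In both genotypes the activated values lay under the naive ones, and each KIKO activated library lay above each KI activated one. The Srsf2 decay exon of 104 bp went from 52.8, 36.0 and 48.4% to 2.31, 3.85 and 3.58% in KI and from 56.7, 51.7 and 60.6% to 16.9, 8.76 and 20.8% in KIKO libraries, again with the KIKO activated values above the KI ones. These 3 genes are known for such exons, through which their proteins limit their own mRNA.

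The Prpf3 exon was near 0 in activated cells, going from 54.9, 53.0 and 43.9% to 0.558, 1.97 and 0.997% in KI and from 47.7, 40.8 and 36.1% to 1.85, 2.14 and 2.14% in KIKO libraries. Prpf3, a U4/U6 protein, meanwhile rose in level from 12.0, 12.8 and 13.2 to 24.7, 24.7 and 24.9 FPKM in KI libraries. The Hnrnpl exon was used at 20.1, 3.62 and 16.6% in KI naive, 5.76, 19.0 and 15.1% in KIKO naive, 1.45, 2.21 and 2.12% in KI activated and 7.36, 4.89 and 2.29% in KIKO activated libraries, and the activated genotypes did not overlap. In Hnrnpdl the 105-bp exon had mean inclusions of 81.8% ± 6.36, 89.8% ± 0.406, 44.9% ± 19.8 and 53.6% ± 9.76 (SD, n = 3) in the same order of groups. Prpf39 (40.1% ± 10.2 to 21.3% ± 5.93 in KI) was lower without overlap in activated KI cells, Prpf38b overlapped, and Prpf4b was highest in the 2 KIKO libraries numbered 2, at 6.00% and 9.64%.

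**Figure D3:**
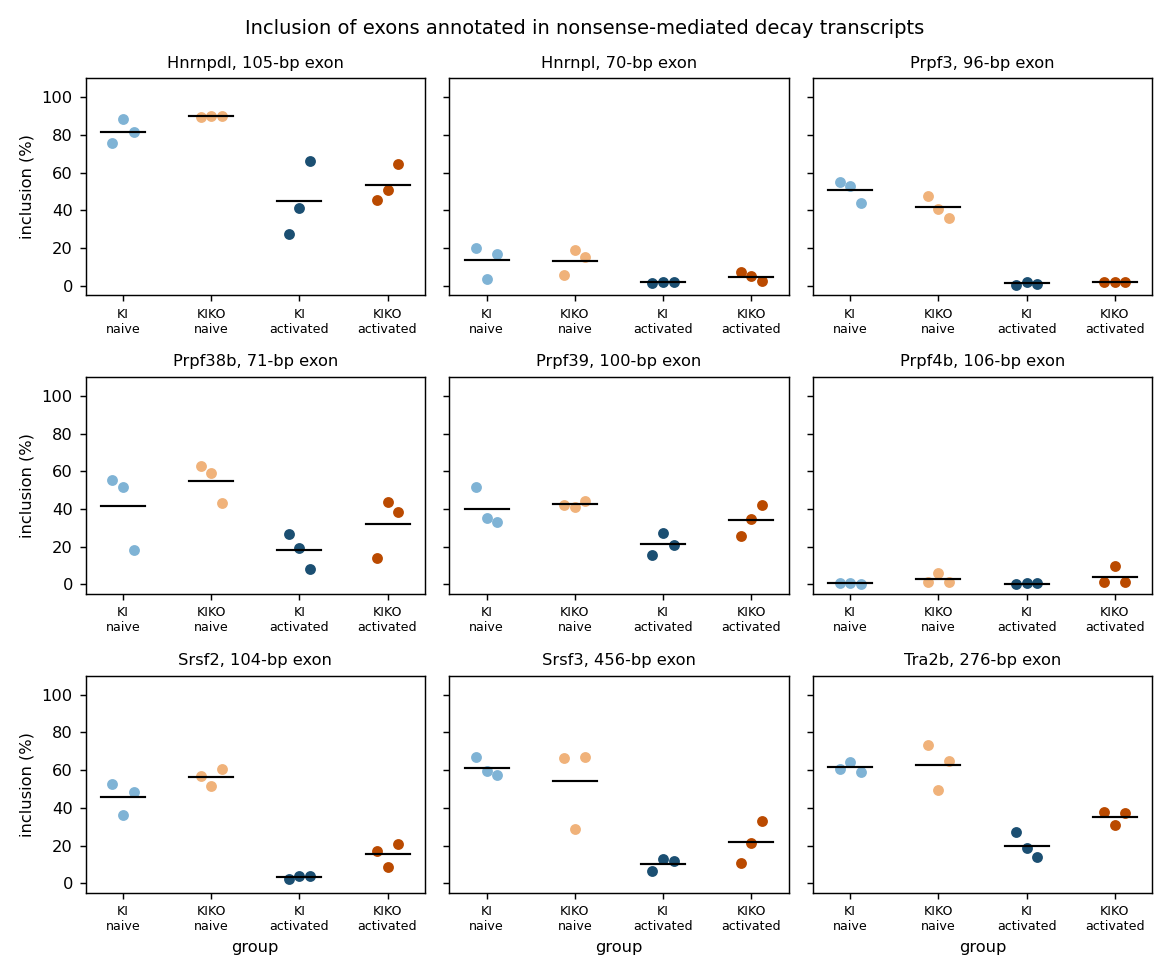
Inclusion in percent of the 9 exons that lie in a nonsense-mediated decay transcript and are coding in no protein-coding one, 1 panel per exon, with a point for each of 3 libraries per group and a bar at the group mean. Inclusion is lower in activated than in naive KI libraries in most panels, and the KIKO activated points of Srsf2, Tra2b, Hnrnpl and Prpf4b lie above all KI activated ones.

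The CLK kinases carry a coding exon whose skipping truncates the kinase, and 2 of them differ in only 6 of its 91 bases, given in capitals (GENCODE M21, GRCm38, 5′ to 3′).
Clk1 91-bp exon, chr1:58420121-58420211, minus strand: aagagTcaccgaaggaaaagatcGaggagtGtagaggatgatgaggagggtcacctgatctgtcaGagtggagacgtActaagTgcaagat
Clk4 91-bp exon, chr11:51273078-51273168, plus strand: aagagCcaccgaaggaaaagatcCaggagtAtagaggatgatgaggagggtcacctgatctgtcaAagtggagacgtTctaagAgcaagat
In these near-identical exons, 85 of 91 bases the same, inclusion moved in opposite directions between the naive genotypes. For Clk4 it was 50.5, 44.0 and 49.9% in KI naive and 78.2, 93.7 and 79.6% in KIKO naive libraries, then 50.6, 53.7 and 44.1% in KI activated and 61.8, 56.6 and 65.4% in KIKO activated ones. KIKO values lay above KI values in both states. For Clk1 it was 68.5, 67.8 and 70.8% in KI naive and 51.4, 57.6 and 48.8% in KIKO naive libraries, lower without overlap, and 47.0, 48.3 and 69.0% and 55.9, 44.2 and 54.1% in the activated groups, which overlapped. The corresponding 97-bp exon of Clk3 was included nearly fully in every library, with means of 99.96% ± 0.00847 in KI naive and 99.9% ± 0.0310 in KIKO activated ones (SD, n = 3). Reads of such similar exons can be assigned to either gene, so these values are uncertain.

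U2af1 holds a pair of neighbouring coding exons of 67 bp that are used as alternatives, separated in the gene by an intron, and 44 of their 67 bases are the same. Capitals mark the 23 that differ (GENCODE M21, GRCm38, minus strand, 5′ to 3′, upstream exon first).
U2af1 upstream 67-bp exon, chr17:31652502-31652568: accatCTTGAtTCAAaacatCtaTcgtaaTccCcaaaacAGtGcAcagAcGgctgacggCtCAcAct
U2af1 downstream 67-bp exon, chr17:31651646-31651712: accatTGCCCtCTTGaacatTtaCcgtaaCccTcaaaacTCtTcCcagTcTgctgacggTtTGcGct
The form with only the downstream exon was the common one, at 27.4, 27.2 and 31.0 FPKM in KI naive, 31.7, 29.1 and 36.3 in KIKO naive, 76.1, 79.7 and 84.6 in KI activated and 63.4, 63.4 and 48.4 in KIKO activated libraries. The form with only the upstream exon measured 1.29, 0.685 and 1.195 FPKM in KI naive and 5.96, 6.32 and 7.98 in KI activated libraries. In KIKO libraries it measured 0.315, 0.255 and 0.460 FPKM when naive and 0.990, 1.30 and 0.824 when activated, so the KI activated libraries stood apart from all others. Of the 2 single-exon forms together the upstream one made up 4.49, 2.46 and 3.71% in KI naive, 0.983, 0.869 and 1.25% in KIKO naive, 7.26, 7.35 and 8.62% in KI activated and 1.54, 2.00 and 1.67% in KIKO activated libraries. KI and KIKO did not overlap in either state. This pair was singled out after its values were seen. A form with both exons was left out of these shares, as KIKO naive 1 and 2 carry different values of it in the 2 events. The shares thus miss part of the use of the upstream exon. In KI naive libraries the both-exon form measured 8.78, 9.77 and 6.26 FPKM. Activated libraries had 6.29, 10.4 and 5.17 FPKM in KI and 9.19, 8.83 and 8.32 in KIKO. Set against the downstream-only form alone, it made up 22.5% in KI naive and 8.31% in KI activated libraries (means). In KIKO the means were 12.7% in naive libraries, by the lower values in naive 1 and 2, and 13.2% in activated ones. Those lower values were 2.61 and 4.32 FPKM, and the other event gave 11.3 and 12.7 FPKM. By the higher values the KIKO naive mean would be larger, so its order beside KI naive is not settled. KI activated libraries lay under KI naive and KIKO activated ones without overlap.

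**Figure D4:**
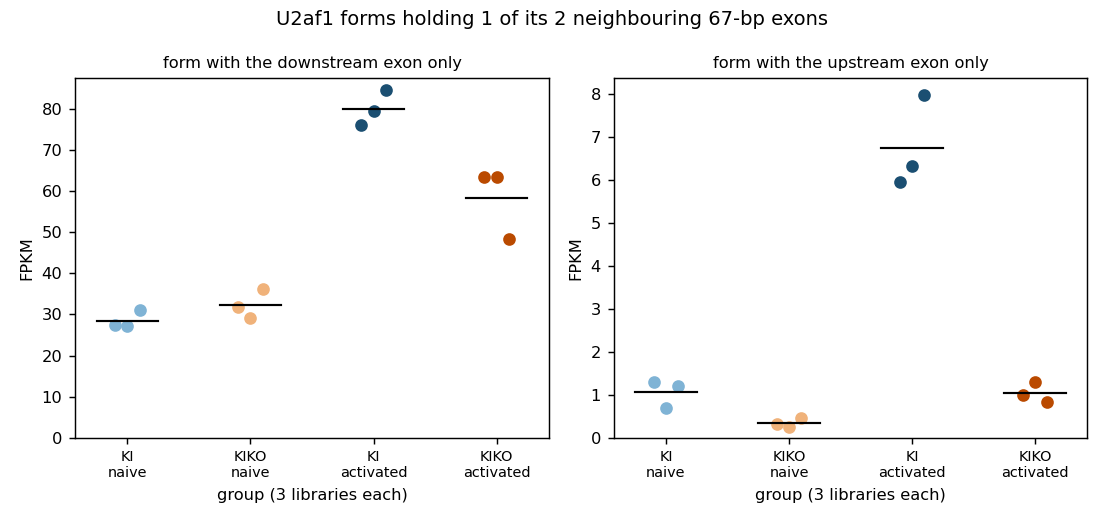
FPKM of the U2af1 forms that hold only the downstream (left) or only the upstream (right) of 2 neighbouring 67-bp exons, a point for each of 3 libraries per group and a bar at the group mean, with separate vertical scales. The upstream form lies between 5.96 and 7.98 FPKM in KI activated libraries and at most 1.30 FPKM in all others.

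Coding exons of 3 hnRNP genes, picked after their values were seen, differed between naive and activated KI cells without overlap. Of all 700 cassette exons 13.7% were higher and 17% lower in that way. A coding 141-bp exon of Hnrnpab, not among the 3, also did so, going from 45.9, 45.3 and 45.8% to 49.7, 48.0 and 53.0%. Hnrnpd, which binds AU-rich elements, includes a 57-bp exon in some of its isoforms, shown here because its use was higher in every activated than in any naive KI library (GENCODE M21, GRCm38, minus strand, 5′ to 3′).
Hnrnpd 57-bp exon, chr5:99976534-99976590: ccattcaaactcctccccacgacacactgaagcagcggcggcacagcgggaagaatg
Its inclusion was 30.8, 10.2 and 18.3% in KI naive and 81.0, 63.3 and 82.5% in KI activated libraries, without overlap. In KIKO libraries it was 22.2, 31.5 and 20.6% when naive and 58.6, 65.5 and 28.5% when activated, and KIKO activated 3 at 28.5% kept the ranges overlapping. A 139-bp exon of Hnrnph1 went from 45.8, 33.1 and 37.8% to 99.96, 99.98 and 99.97% in KI and from 20.9, 27.8 and 34.0% to 60.3, 89.0 and 63.1% in KIKO libraries, with every KIKO activated value under every KI activated one. In Hnrnpa2b1 the 36-bp exon that distinguishes the B1 protein from the A2 protein was used at 0.241, 0.557 and 2.87% in KI naive, 6.17, 9.26 and 7.73% in KI activated, 0.754, 7.51 and 0.464% in KIKO naive and 4.68, 4.64 and 2.84% in KIKO activated libraries. The KI groups did not overlap, nor did the activated genotypes.

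Retained introns were read as the FPKM of a form that keeps an intron, in percent of the level of its locus. The files list 68 such events at 35 members, of which 37 at 25 members had at least 1 FPKM in 3 libraries and a locus level of at least 5 FPKM throughout. One of the 37 was called: a 108-bp intron at the locus named Snrpa fell on activation of KI cells from 16.5, 15.2 and 12.2% to 3.29, 3.81 and 3.34% (-11.2 ± 2.09 points, limma adjusted p = 0.0391), where 1.32% of 1368 events were called. That intron length belongs to Rab4b and not to Snrpa, and the call was lost with an FPKM minimum of 0.1 (adjusted p = 0.0914). It was also lost without KI naive 1 or 2, any KI activated library, or KIKO activated 1 or 2 (adjusted p from 0.0585 to 0.165). No event was called in the other comparisons, for which 0.292%, 0.292%, 0.146% and 0.0731% of all events were called in naive genotypes, activated genotypes, KIKO activation and the interaction. At an unadjusted p under 0.05 stood 5, 5, 7 and 4 of the 37 member events in these, and 10 in KI activation. Of all 1368 events 158, 116, 174 and 89 stood there in the same order, and 172 in KI activation.

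Described together, without a test, member events ran lower in KI activated libraries. The median share over the 37 events was 5.69% to 7.21% in KI naive, 8.77% to 12.5% in KIKO naive, 2.02% to 5.02% in KI activated and 5.91% to 13.0% in KIKO activated libraries. Each KI activated library lay under every library of the other groups. Over all 1368 events the medians were 8.17% to 10.3%, 8.48% to 13.4%, 4.54% to 5.86% and 8.54% to 10.3% in the same order, so the medians of all events were lowest in the same 3 libraries. The estimate was below 0 for 27 of 37 member events on activation of KI cells (73.0%, against 64.7% of all events) and for 23 in KIKO cells (62.2%, against 58.3%).

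**Figure D5:**
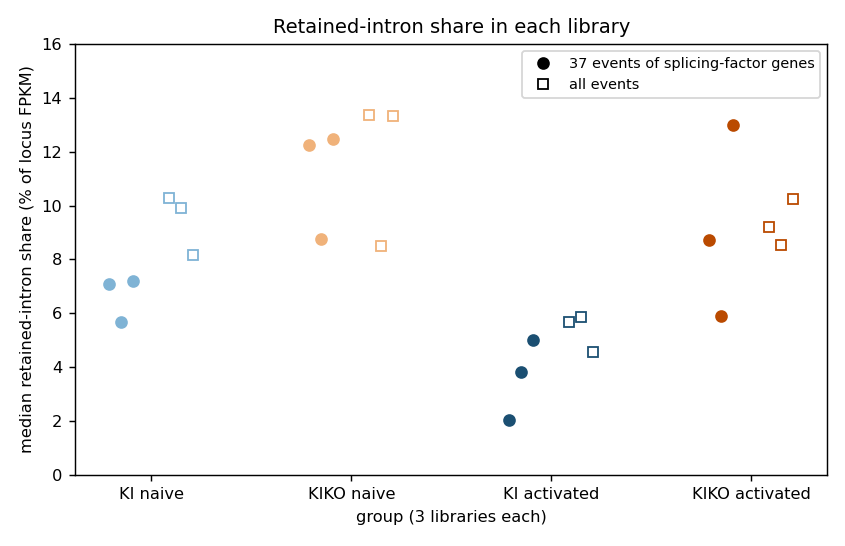
Median retained-intron share, in percent of the FPKM of the locus, in each of 3 libraries per group, with filled circles for the 37 tested events of splicing-factor genes and open squares for all 1368 events. Both medians are lowest in the KI activated libraries, at 2.02% to 5.02% for the splicing-factor genes.

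Single introns had wide ranges. Those given for Srsf2 and Snrpa1 each span a cassette exon, the 104-bp decay exon of Srsf2 and an 80-bp coding exon of Snrpa1. They thus cover sequence also counted in the inclusion of those exons. The 1059-bp intron of Srsf2 was retained at 34.7, 0 and 33.9% in KI naive and 45.8, 44.0 and 39.6% in KIKO naive libraries, and it was not listed in any of the 6 activated libraries, which were taken as 0, nor in 1 naive one. For KIKO activation this was a difference of -43.1 ± 8.11 points (limma adjusted p = 0.0666), which passed the threshold with an FPKM minimum of 0.1 (adjusted p = 0.0381), without KI naive 2 (adjusted p = 0.00258) and without KI naive 3 (adjusted p = 0.0496). The 357-bp intron of Prpf39 went from 35.8, 35.4 and 32.8% to 11.0, 18.9 and 9.61% in KI and from 35.2, 28.4 and 39.5% to 19.8, 26.8 and 31.2% in KIKO libraries, with -21.5 ± 5.22 points in KI cells (adjusted p = 0.0831). For the 1063-bp intron of Snrpa1 the shares were 7.09, 7.01 and 4.93% and 0.966, 0.645 and 0.347% in KI and 8.08, 2.89 and 8.31% and 2.37, 1.37 and 3.62% in KIKO naive and activated libraries (-5.69 ± 1.45 points in KI cells, adjusted p = 0.099). The Snrpa1 intron was called without KIKO naive 2 (adjusted p = 0.0152) and without both KIKO libraries numbered 2 (adjusted p = 0.0252).

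At Srsf5 a retained sequence of 628 bp stood at 2.52, 4.58 and 19.8% in KI naive, 21.9, 45.7 and 49.4% in KIKO naive, 13.0, 11.9 and 10.4% in KI activated and 11.3, 7.04 and 5.28% in KIKO activated libraries, with adjusted p of 0.122 between naive genotypes and 0.124 for KIKO activation. Its length is not that of an annotated Srsf5 intron. The 379-bp intron of Hnrnpa1 stood at 55.6, 32.5 and 26.5% in KI naive, 0, 0 and 13.3% in KIKO naive, 13.9, 11.9 and 12.0% in KI activated and 0, 21.8 and 21.9% in KIKO activated libraries (adjusted p = 0.129 between naive genotypes). In both, the naive groups did not overlap and the test across 1368 events did not call them.

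The other genes of the pathway were taken from 8 lists with 154 genes, of which 132 were tested. In KI cells 79 rose and 21 fell on activation, where 32.2% of all loci rose and 29.5% fell. In KIKO cells 51 rose and 11 fell, against 25.1% and 22.2% of all loci. In activated cells 20 were higher and 36 lower in KIKO, with a median log2 difference of -0.04. Of all loci, 20.7% were higher and 19.3% lower in that comparison, the shares against which the counts of each list below stand. The snRNP assembly list, the SMN and PRMT5 machinery that loads Sm proteins onto RNA, had 7 of 16 lower in KIKO activated cells and none higher. Its members Prmt5 and Clns1a measured 45.9 ± 7.17 and 78.4 ± 5.82 FPKM in KI activated and 24.8 ± 3.80 and 47.5 ± 6.02 FPKM in KIKO activated libraries (SD, n = 3), with limma adjusted p of 0.000233 and 0.000328. Among Lsm proteins, relatives of the Sm ring, 5 of 8 were lower and 1 higher, and among U1, U2 and tri-snRNP partners 7 of 21 were lower and 2 higher. SR-related proteins and SR kinases had 1 of 18 lower and 2 higher in the same comparison.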

How the data were processed

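RNA from 12 libraries of splenic CD4 T cells was taken from 15 ng of total RNA by poly(A) selection and made into stranded libraries, per the labels' protocols. FastQC 0.11.9, cutadapt 2.9, HISAT2 2.2.0 and the builds GRCm39 and mm10 are named in the submitters' processing notes. The values are FPKM of transcript events (starts, ends, skipped exons, retained introns), as the authors deposited them, 1 file per library. Which program made them is not given in sources used here. Coordinates in the files are GRCm39, and sequences and their coordinates are from GENCODE M21 (GRCm38), matched by exon and intron lengths only.

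From these, repeated event lines were dropped. The level of a locus is the largest of its summed starts, its summed ends and its largest single event, and an event not listed was taken as 0. log2(FPKM + 1) of 9743 loci was fitted with limma 3.58.1 in R 4.3.3 as a mean for each of 4 groups of 3 with an intensity trend, and two-sided p-values were adjusted by Benjamini-Hochberg over all loci. A fold change on this scale understates that of low genes. Retained-intron shares of 1368 events were fitted likewise. The fits were tested on simulated data. The genes, lists and tests were chosen with earlier results of these data known. The values of 1 gene are not reported here and it is not drawn, but counts include it. Genes were named by role: up to 4 per class and comparison with the smallest adjusted p, and any called against its class. Up to 8 retained introns with the smallest adjusted p, and up to 2 genes of each other list, were named too. Lengths of 59 loci matched their own gene, 2 a neighbour within 200000 bp, and 6 were undecided (Sf3a3, Sf3b4, Sf3b6, Snrpb2, Snrpd2 and Snrpg). Alternatives were another pseudocount, filter, scaling, level, trend or intron measure, a replicate block, and leaving out each library. Summed ends alone were added after the data were seen. Tables and figures were made with Python 3.11.15, pandas 2.3.3 and matplotlib 3.10.9.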

Additional observations from a re-analysis of the deposited data

Results flagged for a closer look

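For 34 of the 67 genes the response to activation differed between the genotypes by limma's test of that difference (adjusted p under 0.05). Values are the log2 response of KIKO cells minus that of KI cells, from 3 libraries in each of 4 groups. A negative value was found for 31 genes, and 33 of the 34 values are given. Among SR proteins these were Srsf9 (-1.08), Srsf2 (-0.96), Srsf7 (-0.96), Srsf1 (-0.93), Srsf10 (-0.88) and Srsf3 (-0.57). Among hnRNP proteins they were Hnrnpu (-1.55), Hnrnpab (-1.07), Hnrnph1 (-0.99), Hnrnpll (-0.91), Hnrnpa1 (-0.81), Hnrnph3 (-0.77), Hnrnpa2b1 (-0.75), Hnrnpc (-0.71), Hnrnpdl (-0.59) and Hnrnpl (-0.44). The snRNP genes were Snrpa1 (-1.37), Snrpg (-0.97), Snrpd2 (-0.96), Snrpd1 (-0.93), Snrpe (-0.82), Snrpb2 (-0.72) and the locus named Snrpa (-1.02), whose lengths match Rab4b better. In SF3A, SF3B and U2AF they were U2af1 (-0.68), U2af2 (-0.63), Sf3a1 (-0.59), Sf3a3 (-0.58) and Sf3b3 (-0.53), and among PRPF factors Prpf31 (-0.73) and Prpf3 (-0.56). A positive value was found for Snrpd3 (1.97), whose starts and ends disagree, Clk1 (0.98) and Clk3 (0.49). Of the 34 calls 14 held under every alternative that could be fitted, 21 or 22 for each gene. Those of Snrpg and Sf3a1 were lost under 13, Hnrnpl under 12, Srsf7 under 11, Hnrnph3 and Snrpb2 under 7, Snrpd1, Srsf3 and Clk3 under 6 and Prpf31 under 5. Hnrnpa1 was lost under 3, and Hnrnph1, Prpf3, Sf3a3, Sf3b3, Snrpe, Srsf10 and U2af2 under 1. The value of Snrpd3 reversed to -2.57 from transcript ends alone.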

How the results depend on the processing

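Of 60 counts of called genes under alternatives, library omissions aside, 50 lay within 1.5 times the main count, as did 19 of 25 counts of retained introns. The naive comparison called 5 genes, but 1 with no filter, with median-ratio scaling, from summed starts only or with no trend, and 13 after rescaling to an equal sum. The interaction called 34, and 22 (3 higher, 19 lower) after quantile normalization. Summed ends alone, added after seeing the data, left 54 genes tested and called 3 in naive cells, 29 instead of 46 in activated cells and 18 in the interaction. From them Srsf11 in naive cells (-0.18), U2af2 between activated genotypes (0.40), Hnrnph3 in KIKO activation (0.17) and Snrpd3 between activated genotypes (-2.67), in KI activation (2.94) and in the interaction (-2.57) reversed. The retained introns called in KI activation, 1 in the main result, were 4 as a log2 ratio, 0 as a percent of the retained plus spliced form, 0 with an FPKM minimum of 0.1 and 2 without both KIKO libraries numbered 2, the last chosen after seeing the data. With that minimum KIKO activation called 1. In each case the cause was not tested.

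Leaving out each library in turn gave 1 to 7 genes called in naive cells, 41 to 49 in activated cells, 54 to 59 in KI activation, 36 to 45 in KIKO activation and 21 to 37 in the interaction. Retained introns ran from 0 to 2 in naive cells and in each activation, and were 0 throughout in the other comparisons. Of 120 named calls 80 held under all alternatives run, and the 6 above reversed. Over all loci, the percent of calls that were higher in KIKO went from 62.3 to 44.2 (median-ratio), 49.4 (quantile) and 81.0 (equal sum) in naive cells, and from 51.8 to 45.4, 49.1 and 64.9 in activated ones.

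The replicate block left 3 genes called in naive cells and 0 retained introns in KI activation. Whether replicate numbers pair the samples cannot be settled here: 2 of 18 same-numbered pairs had a correlation of deviations over 0.1 (-0.036 to 0.121). Of 12 libraries 7 correlated best with their own number. Between KI naive and KI activated libraries same-numbered pairs stood at 0.055, 0.079 and 0.102, and differently numbered ones at -0.072 to 0.002. In KIKO these were -0.004, 0.094 and 0.035, against -0.073 to 0.066. Without read numbers, counting error at low FPKM is unknown.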

Other observations

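Genes of the exon junction complex and of nonsense-mediated decay, which marks spliced junctions and removes transcripts with premature stops, had 13 members tested. KIKO activated cells had higher levels than KI ones of 6 and lower of 1, where 20.7% of all loci were higher and 19.3% lower. In naive cells 4 were higher and none lower, against 6.46% and 3.9% of all loci. Smg5, which recruits the decay enzymes, measured 34.0 ± 1.68 FPKM in KI activated and 52.4 ± 4.04 in KIKO activated libraries (0.61 ± 0.09, limma adjusted p = 0.000182), and Upf2, a core decay factor, 16.3 ± 0.861 and 23.9 ± 0.643 FPKM (0.53 ± 0.09, limma adjusted p = 0.000546).

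Of 8 genes of the minor spliceosome, which removes the rare U12-type introns, 2 were higher and 1 lower in KIKO activated cells, and 3 were higher and none lower in KIKO naive cells, against the same shares of all loci. Zrsr2, which recognises their 3′ splice site, measured 31.5 ± 5.96 FPKM in KI and 69.9 ± 10.8 in KIKO activated libraries (limma adjusted p = 0.000486). Zmat5, a protein of the U11/U12 particle, was the lower one, at 20.03 ± 0.919 and 13.4 ± 0.135 FPKM (limma adjusted p = 0.00176).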
